A study of Mus musculus with 12 samples.

Results

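Of the 12 brain libraries of the series, 6 held RNA of Hoxa5 at 1 CPM or more and 6 held less, and these 2 classes are called Hox-high and Hox-low here. CPM are counts per 1000000 counts of a library, with the library totals scaled by TMM, a normalization that aligns the bulk of the genes between libraries. The Hox-high libraries were WT female 3, KO female 2, KO female 3, WT male 2, WT male 3 and KO male 2. The Hox-low libraries were KO female 1, WT female 1 and WT female 2 and, among males, WT male 1, KO male 1 and KO male 3. Each library came from the brain of a mouse embryo at E15.5, and the study compared Nsd2 knockout (KO) with wild-type (WT) brains in each sex, with 3 libraries per genotype and sex. The KO mice had lost the whole coding sequence of Nsd2, a histone H3 lysine 36 methyltransferase, by CRISPR/Cas9 editing, and all mice were on the C57BL/6 background. The labels name no treatment, and they name the tissue as brain with no account of where it was cut from the spinal cord. Each class held 3 WT and 3 KO libraries and 3 female and 3 male libraries.

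The members were chosen by the level of Hoxa5 measured in these libraries and not by the labels. Hoxa5 (ENSMUSG00000038253, chromosome 6 of GRCm38, 52201754 to 52204587) was at 13.2, 38.5, 43.6, 46.0, 53.3 and 53.9 CPM in the Hox-high libraries and at 0, 0.0741, 0.0891, 0.127, 0.181 and 0.873 CPM in the Hox-low libraries. The library just under the limit was WT male 1, with 49 counts of Hoxa5, and the one just above it was KO male 2, with 741 counts. Within each class the 3 KO libraries included the lowest level of Hoxa5, and in the Hox-high class they were at 13.2, 38.5 and 46.0 CPM against 43.6, 53.3 and 53.9 CPM in WT. The replicate numbers of the labels were not balanced over the classes. All 4 libraries with the number 1 were Hox-low, and of the 4 with the number 2 and the 4 with the number 3, 1 each was Hox-low, so the class and the number cannot be fully told apart.

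Hox genes encode homeodomain transcription factors that lie in 4 clusters and give cells of the embryo their position along the head-to-tail axis. In the central nervous system they are expressed in the hindbrain and spinal cord, and genes from later positions in a cluster, with higher paralog group numbers, start further towards the tail. The forebrain and midbrain largely lack them. The caudal hindbrain and upper spinal cord hold motor neurons that use acetylcholine, inhibitory interneurons that use glycine, dorsal interneurons that relay sensory signals, and the entering axons of sensory ganglia.

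All libraries carried the labelled genotype and sex in their RNA. Nsd2, named Whsc1 in the tables, was at 350.9 to 407.0 CPM in the 6 WT libraries and at 0.909 to 2.67 CPM in the 6 KO libraries, and Xist, the RNA of the inactive X chromosome, was at 540.2 to 1978 CPM in females and at most 0.171 CPM in males. Library totals ranged from 40398665 to 59304196 counts and overlapped between the classes, with medians of 56223852 in Hox-high and 55445572 in Hox-low libraries. Mitochondrial ribosomal RNA took 3.53%, 5.41% and 6.05% of the counts in WT female 2, KO female 1 and KO female 2 and at most 1.70% in the other libraries, so it stood high in both classes.

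The Hox genes themselves gave the classes an order within them (the map of summed CPM by paralog group). No Hox gene reached 1 CPM in KO male 3, WT female 2 or WT female 1. In KO male 1 and KO female 1 there were 2 Hox genes at 1 CPM or more, none beyond paralog group 3, and in WT male 1 there were 6, none beyond group 4. KO male 2 had 13, up to group 8, and the other 5 Hox-high libraries had 16 to 20, up to group 8 in WT female 3 and group 9 in the rest. Hoxa5, which chose the class, is counted among these genes in every Hox-high library. Paralog group 5 includes Hoxa5 itself. The summed level of this group was 28.2 CPM in KO male 2 and 84.0 to 104.4 CPM in the other Hox-high libraries. Group 4, without Hoxa5, was at 11.9 CPM in KO male 2 and at 33.5 to 41.8 CPM in the other 5. Paralog group 9 was at 4.72 to 6.87 CPM in 4 libraries, at 0.606 CPM in WT female 3 and at 0.232 CPM in KO male 2. Each of groups 10 to 12 summed to at most 0.0502 CPM in any library, and group 13 to at most 0.298 CPM with no order by class.

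**Figure D1:**
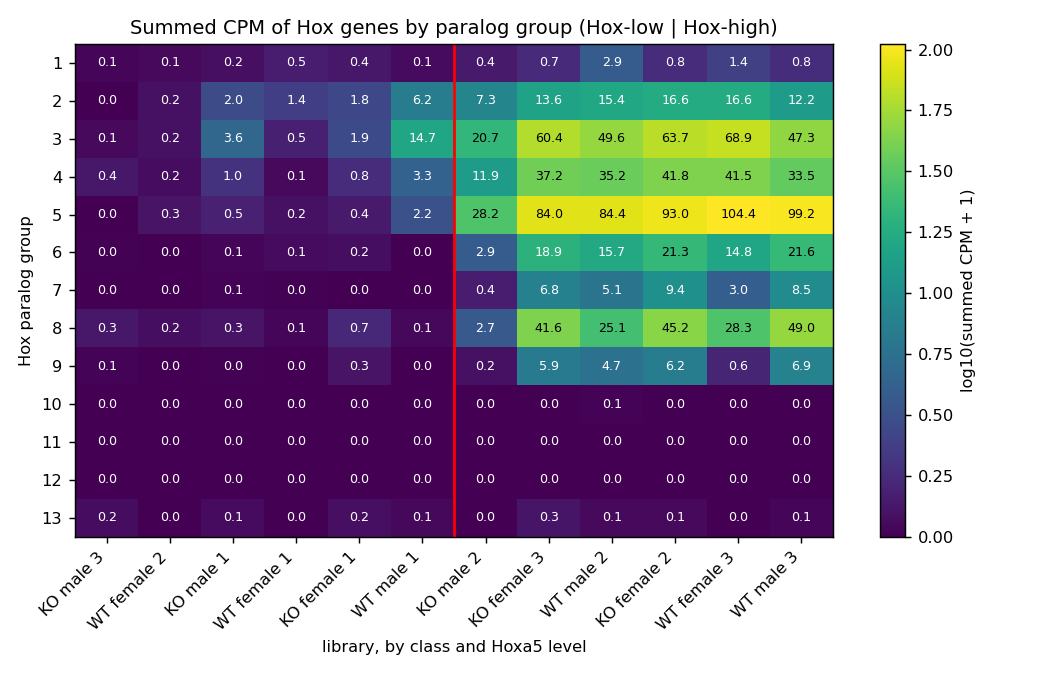
Summed CPM of the Hox genes of each paralog group (vertical axis) in each library (horizontal axis, ordered by class and Hoxa5), with the colour on a log10(summed CPM + 1) scale and the CPM printed in each cell. Group 5, which includes Hoxa5 itself, reached 28.2 CPM in KO male 2 and 84.0 to 104.4 CPM in the other 5 Hox-high libraries. WT male 1 was the Hox-low library with the highest sums for groups 2 to 5.

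Of the genes given as markers of the Hox-high class, Hoxa5 chose it, and the others did not all follow it. Pax8, a paired-box factor of inhibitory interneurons, was at 1.10, 1.67 and 2.99 CPM (lowest, median and highest) in Hox-low libraries and at 3.33, 6.54 and 7.90 CPM in Hox-high libraries, without overlap. Prrxl1, a homeobox factor of dorsal horn and sensory neurons, was at 0.395 to 2.49 CPM in Hox-low and 2.39 to 12.2 CPM in Hox-high libraries, and the classes overlapped at KO male 2. Hoxd8 was at 0.0363 to 0.543 CPM and at 0.0674 to 1.18 CPM, and Hoxc8 at 0 to 0.0679 CPM and at 0 to 0.736 CPM, so both were scarce and overlapped. Hoxb6, Hoxb5 and Hoxa6, which the rule did not name, were at 0.0908, 0.820 and 0.0452 CPM or less in all Hox-low libraries and at 2.30, 12.2 and 0.374 CPM or more in all Hox-high libraries. Of the markers other than Hoxa5, Pax8 was without overlap between the classes, whereas Prrxl1, Hoxc8 and Hoxd8 overlapped.

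The genes that went with the class were ranked with a fit of edgeR over all 12 libraries, with the sex table, the genotype and the class as terms. Since the class was made from the same libraries, the fit is given as a description, with log2 differences (Hox-high minus Hox-low) and their standard errors and with no p-value. Of 19768 genes with enough counts, 60 (0.304%) were higher in Hox-high libraries past the threshold of an adjusted p under 0.05 and 3 (0.0152%) were lower. At an unadjusted p under 0.05 in the same fit, 1743 genes were higher and 1553 were lower. Of the 60, 10 were Hox genes, with Hoxa5 among them, 6 were other transcripts of the Hox clusters and 44 lay outside the clusters. All 44 were protein coding. Without overlap between the classes, 100 genes (0.506%) were higher and 40 (0.202%) were lower. Of 24 Hox genes tested among 39, 17 were without overlap, with Hoxa5 among them by the rule. Of the 44 genes outside the clusters, 18 were without overlap and 26 overlapped in at least 1 library.

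The number of these genes rested on single libraries. Leaving out a Hox-low library left 19 genes outside the clusters in place of 44 for WT female 1, 15 for WT female 2, 76 for KO female 1, 24 for WT male 1, 17 for KO male 1 and 15 for KO male 3. Leaving out a Hox-high library left 15 for WT female 3, 11 for KO female 2, 128 for KO female 3, 17 for WT male 2, 23 for WT male 3 and 35 for KO male 2. Whichever library was left out, 18 genes stayed past the threshold, 7 of them outside the clusters, namely Slc5a7, AF529169, Prkcq, Nkx6-3, Slc18a3, Arhgap36 and Gpx3. Genes named in the following that are neither among the 20 strongest without overlap nor the leading members of a list were chosen after their values were seen.

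Of the genes that acetylcholine neurons use, Slc18a3 and Slc5a7 were past the threshold. Slc18a3, which encodes the vesicular acetylcholine transporter, was at 0.874, 1.41 and 2.22 CPM in Hox-low libraries and at 4.16, 5.19 and 6.03 CPM in Hox-high libraries, and every Hox-high library lay above every Hox-low library. Its log2 difference was 1.75 (SE 0.20). Slc18a3 lies inside the locus of Chat, the gene of choline acetyltransferase, so reads of the shared part cannot be given to one of them with certainty. Chat itself was at 0 to 0.249 CPM in Hox-low and at 0.553 to 0.736 CPM in Hox-high libraries, again without overlap, with a log2 difference of 2.04 (SE 0.43) that did not pass the threshold. Slc5a7, the choline transporter that loads these neurons with choline, was at 1.25, 1.90 and 4.88 CPM in Hox-low and at 3.15, 5.88 and 7.98 CPM in Hox-high libraries. Its classes overlapped because WT female 1 and WT male 1, at 4.88 and 3.63 CPM, reached the level of KO Hox-high libraries at 3.15 to 4.56 CPM.

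Among transcription factors of motor neurons Phox2a was past the threshold. Phox2a, a homeobox factor of cranial motor and noradrenergic neurons, was at 0.0857, 0.489 and 0.762 CPM in Hox-low and at 0.927, 1.48 and 1.89 CPM in Hox-high libraries, a log2 difference of 1.60 (SE 0.30). Tbx20, a factor of cranial motor neurons, was at 0.0741 to 1.40 CPM in Hox-low and 2.33 to 5.03 CPM in Hox-high libraries, and Lhx3, a factor of spinal motor neurons, at 0 to 0.356 and 0.802 to 1.81 CPM, both without overlap and not past the threshold. Mnx1, a marker of spinal motor neurons, was at 0 in all 6 Hox-low libraries and in KO male 2 and at 0.101 to 0.268 CPM in the other 5, too low to be tested.

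As a list, the motor neuron genes had 17 tested members, of which 3 (Slc18a3, Slc5a7 and Phox2a) were past the threshold and 7 were without overlap. All 17 had a log2 difference above 0, with a median of 1.25 against 0.0143 over all genes tested. Over all genes tested 0.304% were higher past the threshold, 0.506% were higher without overlap and 0.202% were lower without overlap. The counts of this list and of those below stand beside these shares and this median. Isl1, which many forebrain neurons also express, was the member nearest to 0 after Mmp9, with 0.09 (SE 0.38), and was lowest in WT female 1 at 4.32 CPM against 16.1 to 28.3 CPM in the other libraries, and its difference was -0.18 without WT female 1. In bulk RNA, more cells of a type and more RNA per cell cannot be told apart.

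**Figure D2:**
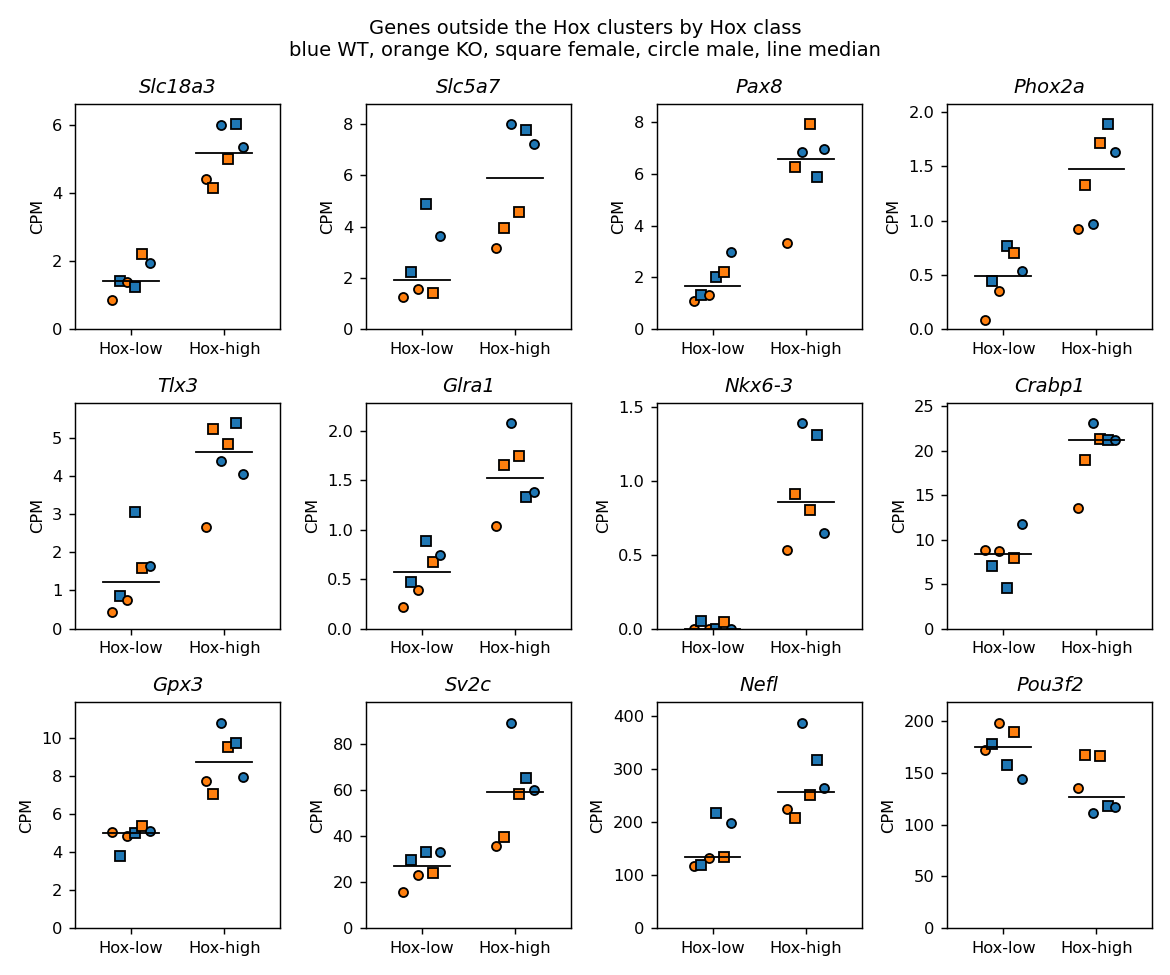
CPM of 12 genes outside the Hox clusters in each library (points), by class on the horizontal axis, with WT in blue, KO in orange, females as squares, males as circles and the class median as a line. Slc18a3, Pax8, Phox2a, Glra1, Nkx6-3, Crabp1, Gpx3 and Sv2c did not overlap between classes, whereas Slc5a7, Tlx3, Nefl and Pou3f2 did.

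Of the genes of dorsal and inhibitory interneurons, Tlx3, Pax8 and Glra1 were past the threshold. Tlx3, a homeobox factor of excitatory dorsal interneurons, was at 0.428, 1.22 and 3.05 CPM in Hox-low and at 2.67, 4.61 and 5.37 CPM in Hox-high libraries, with a log2 difference of 1.77 (SE 0.28). It overlapped because WT female 1 was at 3.05 CPM and KO male 2 at 2.67 CPM. Pax8 had a log2 difference of 1.76 (SE 0.25), and its relative Pax2 one of 2.30 (SE 0.53) that did not pass the threshold, although Pax2 did not overlap (0.634 to 10.6 CPM against 10.8 to 27.9 CPM). Lbx1, which specifies dorsal interneurons of the hindbrain and spinal cord, was at 0.171 and 0.197 CPM in KO male 3 and WT female 2, at 1.83 to 4.67 CPM in the other Hox-low libraries, at 4.63 CPM in KO male 2 and at 10.5 to 13.3 CPM in the other Hox-high libraries. Of 26 tested dorsal interneuron factors 2 (Pax8 and Tlx3) were past the threshold and 18 had a difference above 0, with a median of 0.39. Of 18 tested ventral interneuron factors 0 were past it, 8 were above 0 and the median was -0.11. The members ran from Sox14 at -0.74 (SE 0.37) to Nkx6-1 at 0.93 (SE 0.23). Foxp2, the most abundant of these, was at 103.3 to 176.8 CPM in Hox-low and 90.7 to 110.6 CPM in Hox-high libraries.

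Glra1, the alpha 1 subunit of the glycine receptor, was at 0.223, 0.574 and 0.889 CPM in Hox-low and at 1.03, 1.52 and 2.07 CPM in Hox-high libraries, a log2 difference of 1.48 (SE 0.26). Slc6a5, the glycine transporter that marks glycine-releasing neurons, was at 0.223 and 0.667 CPM in KO male 3 and WT female 2, at 2.73 to 4.76 CPM in the other Hox-low libraries and at 6.10 to 22.6 CPM in Hox-high libraries. It did not pass the threshold (log2 difference 2.43, SE 0.58), and its classes did not overlap. The genes of GABA synthesis, not past the threshold, had log2 differences of -0.05 (SE 0.057) for Gad1 and -0.36 (SE 0.087) for Gad2. Of 10 tested genes of glycine and GABA transmission only Glra1 was past the threshold, and the median was 0.11. Slc17a6, the vesicular glutamate transporter and the most abundant of the 11 tested excitatory and monoamine genes, was at 89.1 to 112.5 CPM in Hox-low and at 105.2 to 124.2 CPM in Hox-high libraries, and 0 of the 11 were past the threshold.

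The stretch before the start is shown for 3 of the genes past the threshold in the motor neuron and dorsal interneuron lists. Slc5a7 and Phox2a, also past it in the motor neuron list, are not shown, and their stretches held AGGTCA 0 times. The sequences are the 250 bases before the RefSeq start site on GRCm38, 5′ to 3′ on the gene's strand, all 3 on the minus strand, at chr14:32464851-32465100 for Slc18a3, chr2:24475600-24475849 for Pax8 and chr11:33203589-33203838 for Tlx3. Capitals mark the letters AGGTCA or their reverse complement, which form only a part of many sites that nuclear receptors bind.
Slc18a3: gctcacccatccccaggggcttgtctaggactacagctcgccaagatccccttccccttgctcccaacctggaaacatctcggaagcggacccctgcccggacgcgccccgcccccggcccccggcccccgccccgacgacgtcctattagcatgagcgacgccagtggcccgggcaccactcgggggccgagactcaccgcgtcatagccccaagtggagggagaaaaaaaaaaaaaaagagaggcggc
Pax8: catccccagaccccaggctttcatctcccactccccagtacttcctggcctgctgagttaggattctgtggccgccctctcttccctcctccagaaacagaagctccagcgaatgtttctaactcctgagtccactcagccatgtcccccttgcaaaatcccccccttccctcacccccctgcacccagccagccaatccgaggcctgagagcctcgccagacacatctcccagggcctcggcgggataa
Tlx3: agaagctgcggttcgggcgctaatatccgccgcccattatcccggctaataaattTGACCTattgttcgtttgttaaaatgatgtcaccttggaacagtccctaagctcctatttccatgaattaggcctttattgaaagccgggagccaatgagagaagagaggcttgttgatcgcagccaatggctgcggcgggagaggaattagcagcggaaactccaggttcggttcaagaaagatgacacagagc
Of the 44 genes, 29 had such a stretch in the RefSeq table, and 3 motifs were searched on both strands, a gene being counted when any of its start sites held the letters. TGATTNAT, bound by Hox proteins with Pbx, was in 0 of the 29 and in 1.73% of the 12257 tested genes with a stretch. TAATTA, the core bound by many homeodomains, was in 1 (Ckmt1, 3.45%) against 3.30%, and AGGTCA in 4 (13.8%) against 13.1%. These shares lay near those of all tested genes, and a match or its absence in this window is a description of letters only.

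Of the genes of neurofilaments and other parts of large, long-axon neurons, Nefl and Nefm were past the threshold. Nefl, the light neurofilament chain, was at 116.8, 133.1 and 216.7 CPM in Hox-low and at 206.2, 256.7 and 386.5 CPM in Hox-high libraries (log2 difference 0.84, SE 0.14). Nefm, the medium chain, was at 56.5 to 104.8 CPM and at 103.2 to 187.5 CPM (log2 difference 0.80, SE 0.14). Prph, the intermediate filament peripherin of motor and sensory neurons, did not overlap, at 2.23 to 6.50 CPM in Hox-low and 13.2 to 67.4 CPM in Hox-high libraries, but WT male 2 alone held the 67.4 CPM and the log2 difference of 2.68 (SE 0.44) did not pass the threshold. Of 8 tested genes of the list 2 (Nefl and Nefm) were past the threshold and all 8 were above 0.

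**Figure D3:**
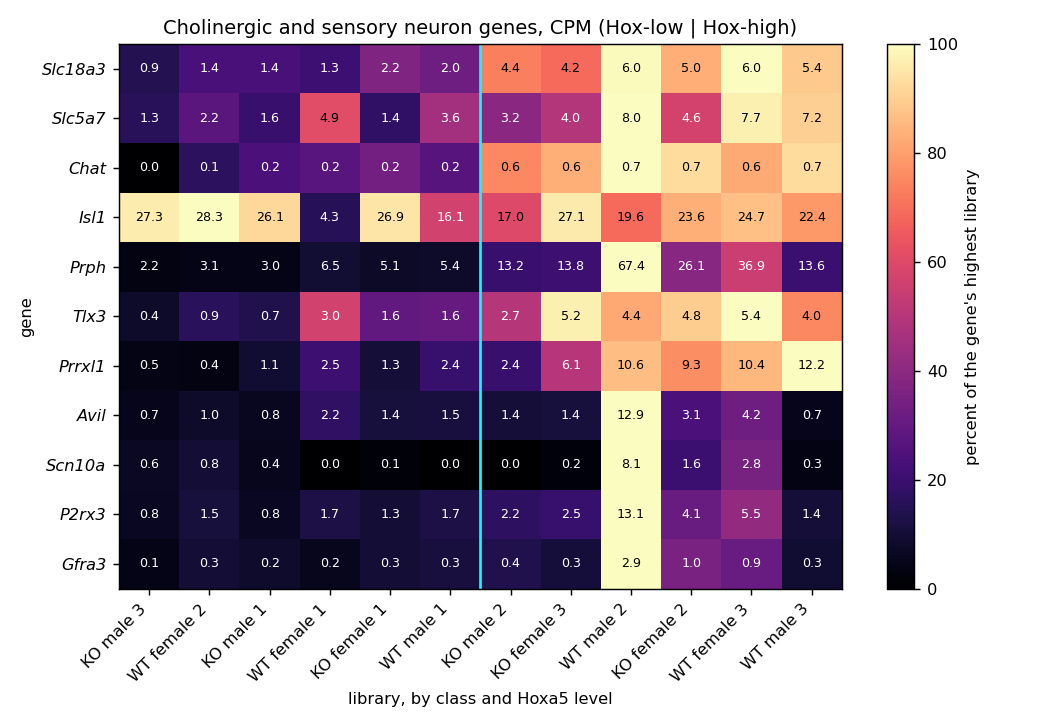
CPM of 11 cholinergic, dorsal interneuron and sensory neuron genes (vertical axis) in each library (horizontal axis, by class and Hoxa5), coloured as percent of the gene's highest library, with the CPM printed in each cell. Slc18a3 and Chat were higher in all 6 Hox-high libraries, whereas Avil, Scn10a, P2rx3 and Gfra3 were highest in WT male 2, with WT female 3 and KO female 2 next in either order.

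Of the sensory ganglion genes, Avil, Scn10a, P2rx3 and Gfra3 split the Hox-high class, and the others are not claimed to share this pattern. Avil, which encodes the actin regulator advillin of sensory neurons, was at 12.9 CPM in WT male 2, 4.21 CPM in WT female 3 and 3.10 CPM in KO female 2. In KO female 3, KO male 2 and WT male 3 it was at 1.42, 1.35 and 0.682 CPM, no higher than in Hox-low libraries, which were at 0.702 to 2.23 CPM. Scn10a, a sodium channel of pain-sensing neurons, was at 8.10 CPM in WT male 2, 2.85 CPM in WT female 3 and 1.62 CPM in KO female 2 and at 0 to 0.815 CPM in the other 9. Of 19 tested sensory ganglion genes 0 were past the threshold, 14 were above 0 and the median was 0.46. The list's summed level was 323.4 to 413.1 CPM in Hox-low and 322.8 to 499.4 CPM in Hox-high libraries, most of it from Ntrk2, which was at 187.6 to 220.5 and 166.8 to 231.8 CPM and is also expressed across the brain. Of 14 tested Schwann cell and neural crest genes 0 were past the threshold, with a median of 0.63 and a summed level of 189.2 to 236.9 CPM against 202.6 to 296.3 CPM, where Ednrb was the most abundant at 75.8 to 113.6 and 87.0 to 121.6 CPM. WT male 3 had the highest Hoxa5 of all libraries and Avil at 0.682 CPM, so Hoxa5 and Avil did not go together in every library. The part of ganglion RNA in the other differences was not tested. WT male 2 was the library highest in Avil and Scn10a. WT female 1 was the one lowest in Isl1 and in the forebrain factor Dlx1. Without both libraries, 13 genes were higher and 7 of them lay outside the clusters, an alternative chosen after seeing the data.

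Peptides and receptors added single genes. Calcb, a calcitonin gene-related peptide, had 0 counts in all 6 Hox-low libraries and 94 counts over the 6 Hox-high libraries (0.0706 to 0.619 CPM), at least 29.7-fold higher against a floor of 3 counts over the Hox-low libraries together. Its near copy Calca was at 0.178 to 0.659 and 0.354 to 3.11 CPM, and reads could be split between them. Ramp3, a partner of the receptors of this peptide family, was at 1.79, 2.27 and 2.59 CPM in Hox-low and at 2.83, 4.08 and 4.45 CPM in Hox-high libraries (log2 difference 0.81, SE 0.14). Pdyn, the precursor of the opioid peptide dynorphin, was at 3.76 to 5.10 and 5.24 to 9.97 CPM (0.61, SE 0.11), and Cartpt, a peptide precursor, at 0.769 to 2.14 and 2.14 to 3.23 CPM, without overlap by a margin within the rounding and not past the threshold (1.04, SE 0.20). Of 18 tested genes of the peptide list 1 (Pdyn) was past the threshold, and all 18 were above 0 with a median of 0.41. Other receptors past the threshold, besides Glra1, were Galr1 for galanin (1.16, SE 0.21), Ptger4 for prostaglandin E2 (1.36, SE 0.25), Sstr1 for somatostatin (0.56, SE 0.091) and Chrm2 for acetylcholine (0.47, SE 0.082), and these 4 overlapped between classes.

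The remaining genes without overlap came from several functions. Nkx6-3, a homeobox gene, was the one closest to presence and absence, with 0 or 2 counts in each Hox-low library and 30 to 83 counts in each Hox-high library (at most 0.0494 CPM against 0.535 to 1.39 CPM). Crabp1, which binds retinoic acid in the cytoplasm, was at 4.57, 8.34 and 11.7 CPM in Hox-low and at 13.5, 21.2 and 23.0 CPM in Hox-high libraries (log2 difference 1.30, SE 0.19). It was the only one of 13 tested floor plate and retinoic acid genes past the threshold, and the list's median was 0.10. Gpx3, a secreted glutathione peroxidase, was at 3.78 to 5.36 and 7.08 to 10.8 CPM (0.85, SE 0.12). Sv2c, a glycoprotein of synaptic vesicles, was at 15.7, 26.9 and 33.1 CPM and at 35.6, 59.3 and 89.4 CPM (1.12, SE 0.15). Hopx, a small homeodomain protein, differed by 1.12 (SE 0.16), Shisa8, of a family that regulates glutamate receptors, by 1.02 (SE 0.16), Klhl14, a Kelch-like protein, by 0.87 (SE 0.15) and Bcan, the matrix proteoglycan brevican, by 0.52 (SE 0.092). Tspan17, a tetraspanin, differed by 0.68 (SE 0.12) and Doc2a, a calcium sensor of vesicle release, by 0.45 (SE 0.082). Other members of the 44 that overlapped included the signalling genes Fgf10 (1.19, SE 0.18), Frzb, a secreted Wnt antagonist (0.85, SE 0.14), and Prkcq, protein kinase C theta (0.99, SE 0.11), the transcription factors Mafa (1.74, SE 0.27) and Tshz2 (0.36, SE 0.067), and the serpin Serpinb1b (2.0, SE 0.30). Gyg, a glycogenin that starts glycogen synthesis (0.38, SE 0.065), Ndnf, a secreted neurotrophic factor (0.52, SE 0.094), Sult4a1, a brain sulfotransferase (0.27, SE 0.047), and Acsl5, an acyl-CoA synthetase (0.43, SE 0.081), overlapped too.

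Skap2, an adaptor protein, lies 143.0 kb from the Hoxa cluster. It was at 1.80, 2.66 and 2.87 CPM in Hox-low and at 3.30, 5.31 and 6.36 CPM in Hox-high libraries, with a log2 difference of 1.0 (SE 0.16). It was the only one past the threshold of 42 protein-coding genes tested within 500 kb of a Hox cluster, whose median difference was 0.04. Skap1, its relative beside the Hoxb cluster at 96.3 kb, had a difference of 0.70 (SE 0.21) and overlapped between classes, and Evx1 and Evx2, the homeobox genes next to the Hoxa and Hoxd clusters, had 0.49 (SE 0.23) and 0.03 (SE 0.19). Among transcripts of the clusters that are not Hox genes, Hoxb5os had 149 counts over the Hox-high libraries and 0 in the Hox-low libraries, at least 47.1-fold higher against the same floor. Hoxaas3 was at 0 to 0.0534 and 0.535 to 1.07 CPM, and Haglr at 0 to 0.0891 and 0.285 to 0.960 CPM. The paper's methods name a directional library kit, but how the counting used the strand is not given in the sources used here. It is therefore not known whether reads of these antisense transcripts were kept apart from those of the Hox genes they overlap. Of 9 partner genes of the Pbx and Meis families 0 were past the threshold. Meis1 had a difference of 0.59 (SE 0.13).

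The 3 genes that were lower in Hox-high libraries past the threshold were Pou3f2, a POU factor of neural progenitors and upper-layer cortical neurons, at 144.6, 175.0 and 198.7 CPM in Hox-low and 111.2, 127.0 and 167.1 CPM in Hox-high libraries (log2 difference -0.37, SE 0.059), Nos1ap, an adaptor of neuronal nitric oxide synthase (-0.41, SE 0.066), and Mllt3, a transcription elongation factor (-0.22, SE 0.039). All 3 overlapped between classes. The genes lower without overlap that ranked highest were Sltm, Arhgap11a, Jmy, Ccar1, Med13l, Kcna3, Dab1, Fnbp1l, Zbtb44 and Prkx, with log2 differences from -0.35 to -0.18, none past the threshold. Among them Dab1, the adaptor of reelin signalling in cortical neurons, was at 147.1 to 184.2 CPM in Hox-low and 117.0 to 142.6 CPM in Hox-high libraries.

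The lists of brain regions differed in their medians (the plot of list medians). Of 21 tested telencephalic and cortical genes 20 were below 0, with a median of -0.28, and of 16 midbrain genes 14 were below 0, with a median of -0.32. Of 13 thalamic and hypothalamic genes 9 were below 0 (median -0.16), of 11 cerebellar genes 8 were above 0 (median 0.11), and of 12 hindbrain genes 10 were above 0 (median 0.66), Tlx3 and Phox2a among them past the threshold. In the other 4 lists 0 genes were past it. Bcl11b, the most abundant forebrain gene, was at 312.9 to 465.3 CPM in Hox-low and 226.2 to 334.1 CPM in Hox-high libraries, and Tbr1, of deep-layer cortical neurons, was the only member without overlap, at 161.8 to 205.1 and 114.5 to 158.7 CPM. The most abundant members of the others were Tcf7l2 of the thalamus at 193.9 to 437.4 and 144.8 to 284.2 CPM, Nr4a2 of midbrain dopamine neurons at 28.1 to 41.3 and 26.4 to 41.7 CPM, and Zic1 of the cerebellum at 211.7 to 304.6 and 223.8 to 297.6 CPM. WT female 1 stood apart within the Hox-low class, with Dlx1, a factor of forebrain inhibitory neurons, at 25.6 CPM against 62.4 to 109.2 CPM in the other 5, and En2, of the midbrain and anterior hindbrain, at 70.7 CPM against 18.4 to 33.2 CPM.

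**Figure D4:**
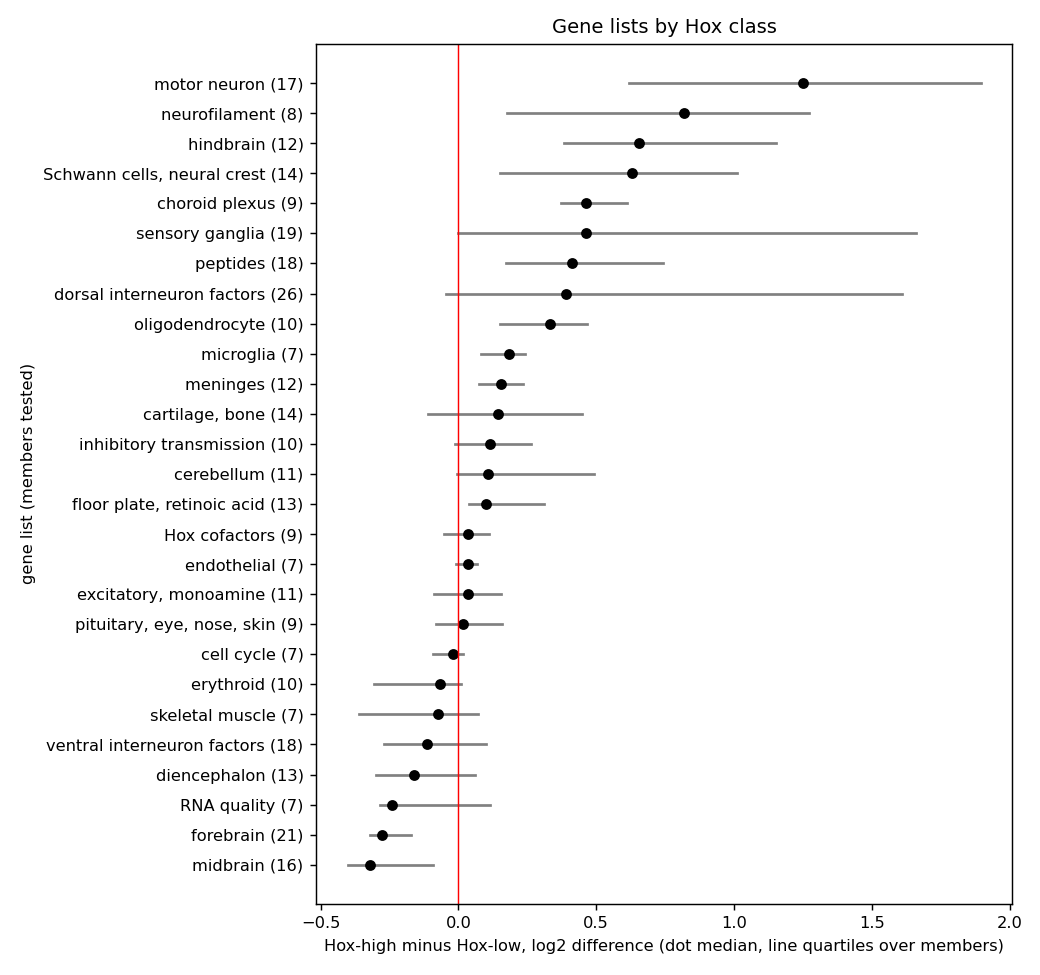
Median log2 difference (Hox-high minus Hox-low, horizontal axis, dots) with the quartiles over the members (lines) for 27 gene lists (vertical axis, members tested in parentheses). Among these lists, which leave out the Hox genes, the RNAs of their clusters and the sex genes, motor neuron genes had the highest median at 1.25 and midbrain genes the lowest at -0.32, and some genes stand in more than 1 list.

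Marker lists of tissue around the brain did not pass the threshold in any member. The most abundant gene of skeletal muscle, Myh8, was at 0.565 to 4.81 CPM in Hox-low and at 1.38 to 2.56 CPM in Hox-high libraries, and the summed muscle list was at 4.49 to 11.2 and 4.72 to 6.63 CPM. Cartilage and bone genes summed to 74.2 to 146.0 and 51.6 to 120.2 CPM, where Col2a1 led at 44.0 to 84.9 and 26.2 to 80.6 CPM, and pituitary, eye, nose and skin genes to 7.84 to 17.2 and 9.53 to 13.1 CPM, where Krt10 led at 2.86 to 3.74 and 2.88 to 4.23 CPM. Genes of the choroid plexus, which the hindbrain and forebrain ventricles both hold, summed to 230.5 to 603.3 and 262.4 to 959.2 CPM, all 9 above 0 with a median of 0.46, and Ttr was at 162.8 to 492.9 and 198.6 to 793.8 CPM. Meningeal genes summed to 406.7 to 1014 and 376.2 to 1520 CPM, with Igf2 at 183.0 to 372.1 and 152.9 to 468.9 CPM. Oligodendrocyte genes had 9 of 10 above 0 (median 0.33), led by Pdgfra at 32.7 to 45.2 and 26.3 to 76.8 CPM. Blood, vessel, microglial and cell cycle genes had medians of -0.07, 0.04, 0.18 and -0.02, with Hbb-bs at 393.1 to 958.9 and 441.7 to 1045 CPM, Kdr at 47.2 to 65.7 and 41.4 to 63.0 CPM, Csf1r at up to 24.5 and 27.6 CPM, and Top2a at 133.7 to 218.9 and 140.4 to 205.9 CPM. The part of these tissues in the differences was not tested.

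In each sex table alone fewer genes were past the threshold. In females 14 genes (0.0726% of 19289) were higher and 1 was lower, and in males 2 (0.0104% of 19169) were higher and 0 were lower, where 760 were lower at an unadjusted p under 0.05 and DESeq2 was not run on the single tables. None of the genes outside the clusters was higher past the threshold in either table by edgeR. At an unadjusted p under 0.05, 607 genes were higher and 841 lower in females, and 986 were higher in males. Of the 44 genes, 43 were tested in females and 44 in males, and all of these had differences above 0, which is a description because both tables had entered their choice. Slc18a3 had log2 differences of 1.59 in females and 1.75 in males, Pax8 1.72 and 1.33, Tlx3 1.52 and 1.75, and Crabp1 1.59 and 0.77.

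The genotype comes from the labels, so KO could be tested against WT with the class in the fit. The question was whether the 44 genes that went with the Hox-high class differed between genotypes once the class was taken into account. Of the 44, 13 were lower in KO brains past an adjusted p of 0.05 in edgeR's quasi-likelihood test and 0 were higher, as were 0 at an unadjusted p under 0.05 and 0 by DESeq2. Of all genes tested, 2.12% were lower and 2.70% were called in either direction. At an unadjusted p under 0.05 there were 28 of the 44 against 15.2% of all genes. The estimate was below 0 for 42 of the 44, with a median of -0.39 against 0.0045 for all genes. The 44 were chosen for going with the class in these same libraries, so they can move together. Their counts and signs are therefore a description and not 44 separate results. None of the 24 tested Hox genes was called in edgeR or DESeq2, with 1 at an unadjusted p under 0.05 in edgeR. The class was made from Hoxa5, so the test says nothing of the genotype difference of Hoxa5, and other Hox genes went with the class too.

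Sptb, a beta spectrin of the membrane skeleton, had a KO minus WT difference of -0.98 (SE 0.091, adjusted p = 9.95e-05 from edgeR). The choline transporter Slc5a7 was lower in KO, with a difference of -1.16 (SE 0.17, and an adjusted p of 0.00248 by edgeR's test). Its partner in acetylcholine neurons, Slc18a3, had -0.24 (SE 0.19, and an adjusted p of 0.62 by edgeR's test). In Hox-high libraries Slc5a7 was at 3.15, 3.95 and 4.56 CPM in KO and at 7.19, 7.75 and 7.98 CPM in WT, and in Hox-low libraries at 1.25, 1.43 and 1.59 CPM in KO and at 2.22, 3.63 and 4.88 CPM in WT, so the genotypes did not overlap within either class. Differences of AF529169 and Prkcq were -1.06 (SE 0.11) and -0.84 (SE 0.11), with adjusted p of 0.000307 and 0.00145 by edgeR's test. Among receptors and channels, Ptger4 fell by 1.54 (SE 0.25), Sstr1 by 0.48 (SE 0.091) and the potassium channel Kcnk3 by 0.41 (SE 0.088). The others were Arhgap36, a protein of the GTPase-activating family (-0.86, SE 0.17), Fgf10 (-0.75, SE 0.18), Vstm5 (-0.45, SE 0.0996), the creatine kinase Ckmt1 (-0.43, SE 0.094), Crtac1 (-0.39, SE 0.075) and Cbln2, a synapse organizer (-0.25, SE 0.059). All 13 were among the 26 genes that overlapped between the classes, and 0 of the 18 without overlap were called. Sv2c, one of the 18, was just over the limit (-0.66, SE 0.15, and an adjusted p of 0.0501 by edgeR's test). A genotype difference widens the range of each class, so these 2 groups are not separate evidence.

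The test of genotype and the ranking by class came from the same fit and share each gene's spread, so a gene with little spread was more easily past both thresholds. Within the Hox-high class 2 of the 3 KO libraries had Hoxa5 below all WT libraries and in the Hox-low class WT male 1 had the most, and with the log2 CPM of Hoxa5 in place of the class 8 of the 44 were called. Without any Hox term 1 was called, Sptb. The 13 became 8 when either WT female 1 or WT male 2 was left out, 7 when either KO male 1 or KO male 3 was, and 6 when WT male 2 and WT female 1 both were. Slc5a7, AF529169, Prkcq, Sptb, Sstr1, Arhgap36 and Ptger4 were called whichever of the 12 libraries was left out.

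**Figure D5:**
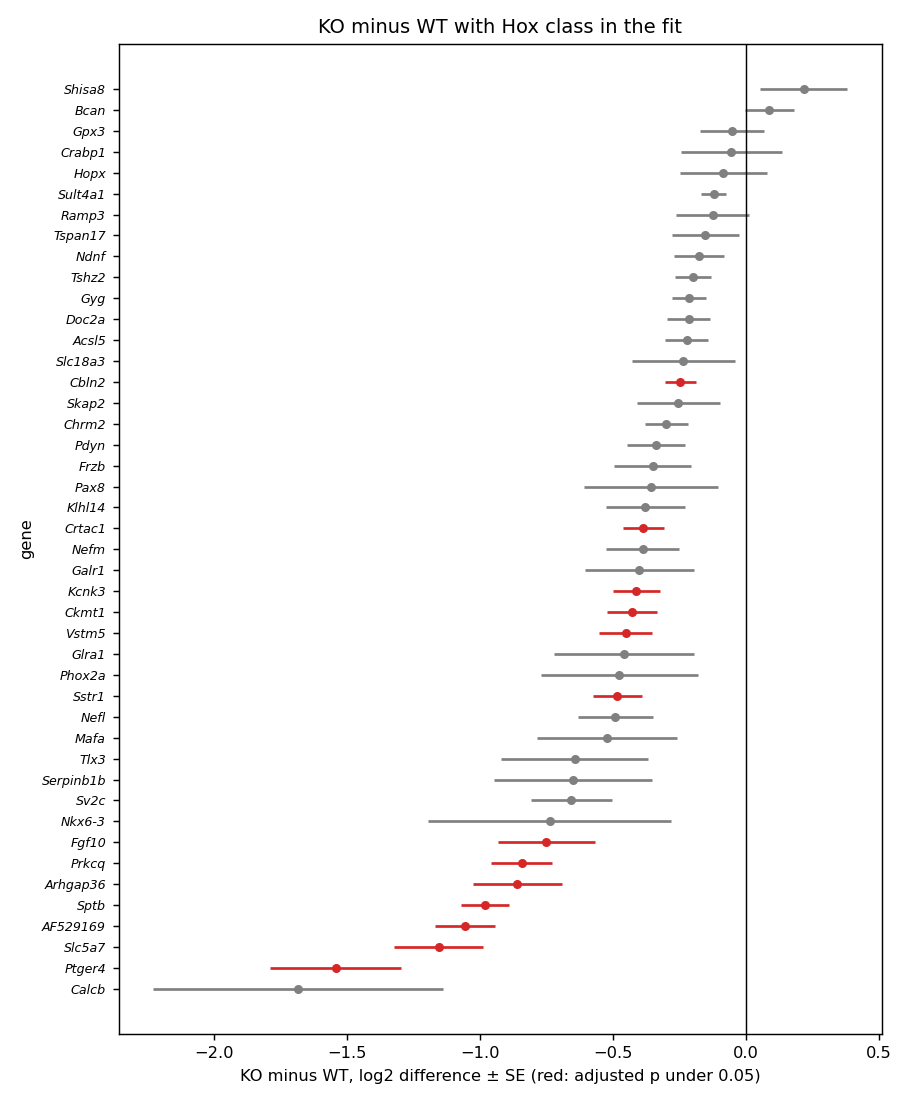
KO minus WT log2 difference (horizontal axis) with its SE (bars) for the 44 genes outside the Hox clusters that were higher in Hox-high libraries (vertical axis), from the fit with sex and Hox class, with genes past an adjusted p of 0.05 in red. All 13 red genes lie below 0, with Slc5a7 at -1.16 and Sptb at -0.98, and 42 of the 44 estimates are below 0.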

How the data were processed

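RNA-seq libraries of E15.5 brains were analysed from the 2 count tables, 1 per sex, that the authors deposited. Per the paper's methods and the submitters' processing notes, ribosomal RNA was depleted, reads were trimmed with cutadapt 2.6 and to a common length, aligned to mm10 (GRCm38) with HISAT2 2.1.0 and quantified with StringTie 2.0.6. The deposited values are gene counts with no normalization, which StringTie's script derives from coverage, and which library had which depletion kit or read length is not given in the sources used here. Totals of 40398665 to 59304196 counts per library limit which genes could be tested, and PCR copies make counting error a lower limit of the error.

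Counts were joined by gene over 46078 genes, filtered with filterByExpr (minimum count 10, total 15) and fitted with edgeR 4.0.16 in R 4.3.3 (TMM, robust quasi-likelihood, F tests, Benjamini-Hochberg, threshold 0.05) with sex table, genotype and Hox class as terms. The class, the markers, the 30 gene lists and the rule for named genes were chosen with earlier results of these data known. The rule names the marker genes, Whsc1, the 20 higher and 10 lower genes with the smallest p whose classes do not overlap, outside Hox clusters and predicted names, and up to 3 members of each list past the threshold or its most abundant member. The class coefficient is a description, and the genotype coefficient is a test. Each SE was computed as the absolute log2 difference divided by the square root of its F statistic. A difference over its SE thus restates that statistic. The labels call the libraries separate animals by number only. Positions came from GENCODE mouse release 21 and start sites from RefSeq, both on GRCm38. Intervals of ratios and the floor of 3 counts cover counting error only.

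Alternatives were RLE normalization, DESeq2 1.42.0, no filter, more than 1 CPM in at least 6 libraries, the replicate number as a block, log2 CPM of Hoxa5 (prior count 2) in place of the class, no covariates, each table alone, no class, and each library left out. The edgeR step was run on simulated counts with known changes. These had the same spread for all genes and no difference between libraries of a class beyond size and random counts. The simulation therefore does not bear on calls that rest on single libraries. Figures were drawn with Python 3.11.15. Results of some list members are not reported here.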

Additional observations from a re-analysis of the deposited data

Results flagged for a closer look

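Within each class of 6 libraries the library furthest out was compared with the rest by Dixon's ratio for 65 named genes. The 95% critical value was exceeded in 16 of 130 groups. A rate of about 1 in 20 would hold for independent, normally distributed values. These groups are not independent, and a group with 0 in all libraries but 1 has a ratio of 1 whatever its counts. The number of flags is therefore not read as an excess over chance. WT male 1 stood above the other Hox-low libraries for Hoxa5 (0.873 CPM, the next at 0.181 CPM), Hoxb5 (0.820 CPM, the next at 0.158 CPM) and Haglr (0.0891 CPM, the others at 0). KO male 2 stood below the other Hox-high libraries for Hoxa6 (0.374 CPM, the next at 2.82 CPM) and Hoxaas3 (0.535 CPM, the next at 0.926 CPM). These are the libraries nearest to the limit of 1 CPM of Hoxa5 on either side. Single traces among Hox-low libraries were Hoxc8 and Hoxa6 in KO female 1 (0.0679 and 0.0452 CPM) and Hoxb6 in WT female 1 (0.0908 CPM), with 0 in the other libraries of the class.

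Outside the Hox clusters, Tspan17 was highest in WT male 2 (15.4 CPM, the next at 10.2 CPM), the library that was also highest in Avil and Scn10a. Gpx3 was lowest in WT female 2 (3.78 CPM, the next at 4.85 CPM), Bcan highest in KO female 1 (38.1 CPM, the next at 29.0 CPM), Jmy lowest in WT female 3 (75.1 CPM, the next at 83.4 CPM) and Prkx highest in KO male 1 (54.7 CPM, the next at 50.9 CPM). Col2a1, a cartilage collagen, was highest in WT female 1 among Hox-low libraries (84.9 CPM, the next at 55.9 CPM), and Krt10, a skin keratin, in WT male 3 among Hox-high libraries (4.23 CPM, the next at 3.32 CPM). The mitochondrial ribosomal RNA mt-Rnr2 was at 38481 CPM in KO female 2, where the next Hox-high library had 9382 CPM.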

How the results depend on the processing

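The 60 higher and 3 lower genes were 459 and 385 by DESeq2, 162 and 107 with log2 Hoxa5 in place of the class, 21 and 0 with no covariates, 14 and 1 in females alone, 2 and 0 in males alone, and 13 and 0 without WT male 2 and WT female 1. With more than 1 CPM in at least 6 libraries 36 were higher. The 44 outside the clusters were 439, 133, 7, 0, 0 and 7 under the first 6 of these settings and 27 under the filter. Leaving out 1 library gave 25 to 143 higher genes, 0 to 26 lower genes and 11 to 128 outside the clusters. In the genotype test the 114 higher and 420 lower genes were 294 and 727 by DESeq2, 48 and 170 without WT male 2 and WT female 1, and 54 to 126 and 237 to 410 without 1 library. The 13 of the 44 genes were 8 with log2 Hoxa5, 1 without the class, 6 without both libraries and 7 to 12 without 1 library. DESeq2 shared 53, log2 Hoxa5 58 and RLE all 60 of the higher genes. The cause of these moves was not tested. Among the genes named with a difference, 11 recomputed values had the other sign, all for differences that did not pass the threshold. The class difference of Isl1 was -0.36 with the replicate block, -0.14 in males alone, -0.19 without both libraries and -0.18 to 0.39 without 1 library, that of Gad1 was 0.037 in males alone, and that of Evx2 was -0.22 in females alone and -0.082 to 0.21 without 1 library. With log2 Hoxa5 the genotype difference of Slc18a3 was 0.0053. Whether the replicate numbers pair the libraries was left unsettled. The 18 same-numbered pairs had correlations of deviations from -0.258 to 0.235, and 7 were over 0.1. Pairs of different numbers ran from -0.225 to 0.316, and 6 of 12 libraries were most like one of their own number. The number and the class cannot be fully told apart. With the number as a block 65 genes were higher, 25 of them among the 60, 3 were lower, 58 lay outside the clusters, 109 were higher and 449 lower in KO, and 14 of the 44 were called. Depth limits the scarce genes, such as Mnx1, which could not be tested.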
